A study of Mus musculus with 4 samples.

Results

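Musashi and neuronal RNA-binding splicing regulators are proteins that decide which exons a neuron keeps in its messenger RNAs and how those RNAs are stabilised and translated. The members were given as a list of 10 gene symbols: Msi1, Msi2, Ptbp1, Ptbp2, Srrm4, Nova1, Elavl2, Elavl3, Elavl4 and Celf4. All 10 were measured, of 18920 genes that had a feature (a probe set of the array) annotated with exactly 1 symbol. They had 12 such features among 22431, and where a gene had more than 1, the feature that was brightest on average was used. The values come from retinal cells of BAC-Crx-EGFP mice on a 129Sv/Ev background at day E17.5 of embryonic development, sorted by fluorescence into EGFP-positive and EGFP-negative cells, with 2 arrays for each fraction. Both fractions carried the transgene, in which EGFP is expressed from a bacterial artificial chromosome under the regulatory sequences of the photoreceptor gene Crx. Nothing in the labels ties a replicate to a separate animal, litter or sort, so errors and p-values cover only the spread between these 4 arrays, which may be technical.

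In the developing nervous system PTB proteins (Ptbp1, then Ptbp2) hold neuronal exons out of messenger RNAs. Srrm4 brings such exons in, as Nova proteins do for some of them. Srrm4 acts on very short exons, the microexons, and Musashi proteins promote exons that are particular to photoreceptors. Elavl and Celf proteins bind uridine-rich or uridine- and guanosine-rich RNA in neurons and affect its splicing, stability and translation. The study set the profile of the Crx-reporter cells against that of the other retinal cells to learn about Crx in cone precursors. The arrays gave a value per gene and not per exon, so exon choice itself was not analysed here.

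Srrm4 was higher in the EGFP-positive cells and was the only regulator of the 10 that passed the test (2.78-fold; 1.47 ± 0.16 on the log2 scale, limma's SE, 2 arrays per fraction; limma adjusted p = 0.0354). Elavl3, Celf4, Msi1, Ptbp2 and Msi2 had higher values on both positive than on both negative arrays, by 1.67-, 1.64-, 1.38-, 1.35- and 1.16-fold, and did not pass. Ptbp1 was the 1 member with lower values on both positive arrays, at 1.26-fold higher intensity in the negative fraction, and did not pass either. Elavl2, Elavl4 and Nova1 differed between the replicates of each fraction by more than between fractions. The test was limma across all features with Benjamini-Hochberg adjustment and a threshold of 0.05, at which 0.820% of all features were higher and 0.143% lower.

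The sequences below are the promoters of the gene that passed the test, Srrm4, and of the PTB pair Ptbp2 and Ptbp1, whose differences had opposite signs. They are RefSeq windows of the build GRCm38.p6, each 300 bases from 250 bases before to 50 after an annotated start, at chr5:116591768-116592067 (minus strand) for Srrm4, chr3:119783339-119783638 (minus strand) for Ptbp2 and chr10:79854182-79854481 (plus strand) for Ptbp1. Capitals mark matches, on either strand, to TAATCC, a core bound by Crx and Otx2, and to CAGATG or CAGCTG, E-boxes of the kind bound by neuronal bHLH factors.
Srrm4: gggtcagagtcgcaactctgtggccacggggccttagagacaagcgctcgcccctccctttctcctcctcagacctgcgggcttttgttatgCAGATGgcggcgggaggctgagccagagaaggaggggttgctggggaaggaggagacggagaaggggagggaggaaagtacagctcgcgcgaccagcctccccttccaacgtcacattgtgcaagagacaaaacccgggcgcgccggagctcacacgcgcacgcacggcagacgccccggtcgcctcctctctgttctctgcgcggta
Ptbp2: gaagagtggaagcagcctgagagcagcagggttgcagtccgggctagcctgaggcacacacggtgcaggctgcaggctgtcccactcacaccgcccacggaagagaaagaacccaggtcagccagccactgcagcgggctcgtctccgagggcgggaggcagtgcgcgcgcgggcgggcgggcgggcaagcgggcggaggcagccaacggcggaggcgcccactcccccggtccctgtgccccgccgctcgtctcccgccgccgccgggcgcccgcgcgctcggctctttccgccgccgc
Ptbp1: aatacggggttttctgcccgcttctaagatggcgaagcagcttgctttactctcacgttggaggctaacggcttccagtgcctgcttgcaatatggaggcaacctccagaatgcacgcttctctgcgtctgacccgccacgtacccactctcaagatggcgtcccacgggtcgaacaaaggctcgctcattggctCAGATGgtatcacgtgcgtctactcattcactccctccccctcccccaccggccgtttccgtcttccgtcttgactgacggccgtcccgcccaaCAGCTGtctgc
The Srrm4 window held a single CAGATG that began 158 bases before the start, the Ptbp1 window held 1 CAGATG and 1 CAGCTG, and the Ptbp2 window held none of the 3 motifs. TAATCC was in none of the 18 member windows searched, which belonged to 8 of the members, and in 7.06% of all 32851 windows. The 18 are the windows that were searched and need not be every annotated window of the members. Windows of Msi1 and Celf4 were not among them, so these counts say nothing of those genes, whether or not they have annotated windows. CAGATG was in 5 of the 18 windows and in 17.2% of all, and CAGCTG in 8 of the 18 and in 16.3% of all. Several of the 18 windows belong to the same gene and overlap, so they are not independent. The Ptbp2 window was 74.7% G and C with 36 CG dinucleotides, the Srrm4 window 64.3% with 25 and the Ptbp1 window 58.3% with 22. A match of letters is a description of the sequence and does not show that a factor binds there.

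The fractions were checked against markers of the retinal cell types. Of 12 photoreceptor markers 9 passed the test as higher in the positive fraction, and their summed intensity was 25866.7 to 31857.2 there against 4395.3 to 4427.3 in the negative fraction. The recoverin gene Rcvrn overlapped between the fractions. Progenitor and cell cycle markers summed to 20317.3 to 30475.0 on the positive and 44666.6 to 47648.1 on the negative arrays, and all 13 measured ones had a negative difference, Sox2 alone passing the test. Summed amacrine markers were 6014.1 to 6053.2 against 3831.5 to 4095.1, and all 9 had a higher mean in the positive fraction. With RNA from pooled cells, fewer cells of a type and less RNA per cell cannot be told apart.

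Srrm4 encodes the splicing activator known as nSR100. Its intensity (feature 10533055, Entrez gene 68955) was 1809.3 and 2115.3 on the positive arrays and 620.7 and 798.4 on the negative arrays. The lowest positive value lay 1.18 log2 units above the highest negative value. As log2 intensity the means were 10.93 ± 0.16 and 9.46 ± 0.26 (SD, n = 2). The 95% interval of the log2 difference ran from 1.06 to 1.89, and 99.4% of all features had a smaller or equal difference. The call rested on the arrays used: without negative replicate 1, negative replicate 2 or positive replicate 2 the limma adjusted p was 0.239, 0.127 and 0.0574, with log2 differences of 1.29, 1.66 and 1.36. Without negative replicate 1 or negative replicate 2 no feature of the whole array passed limma's test, with 2346 and 3134 at an unadjusted p under 0.05.

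**Figure D1:**
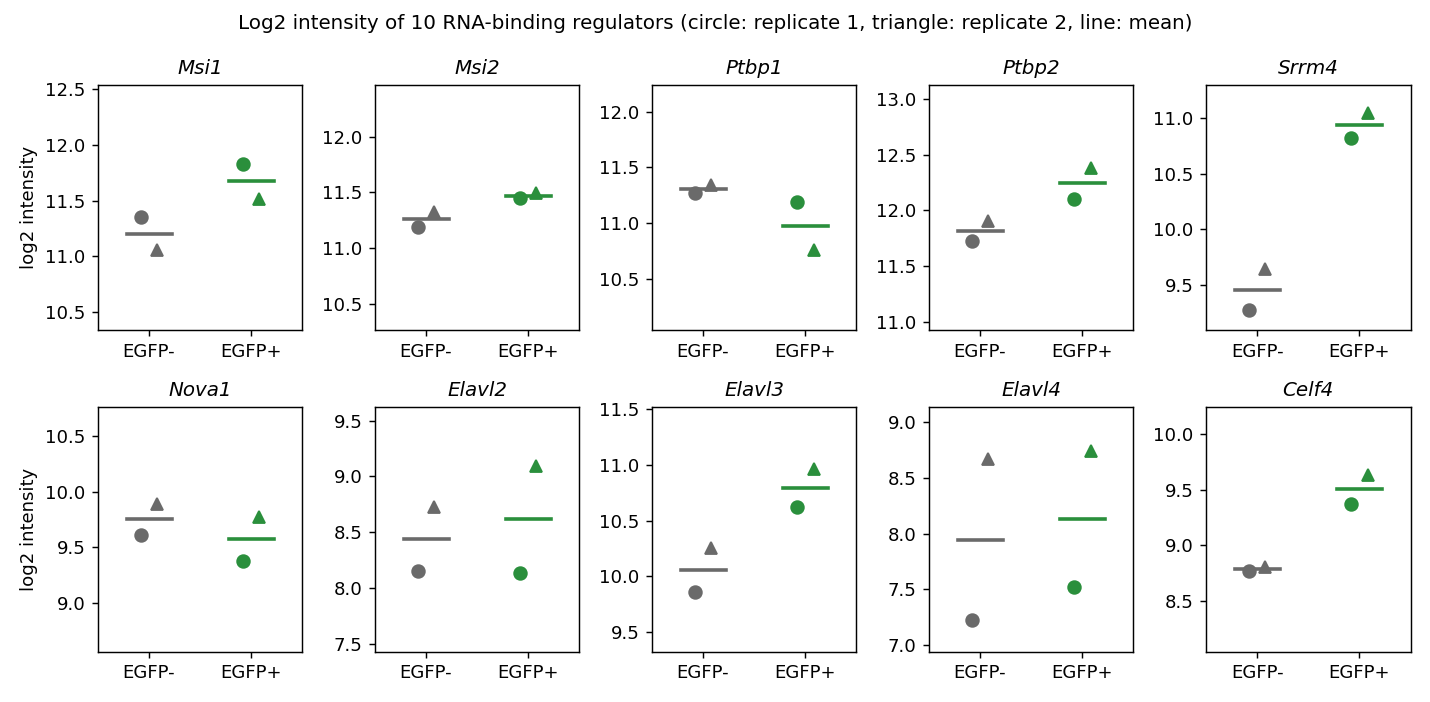
Log2 intensity (vertical axis, with the same span in each panel) of the 10 regulators on the EGFP-negative (grey) and EGFP-positive (green) arrays, with a circle for replicate 1, a triangle for replicate 2 and a line for the mean of the fraction. Srrm4 is separated by the widest gap, while in the Elavl4 panel both triangles lie above both circles.

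The Musashi genes were bright on all arrays. Msi1, also used as a marker of neural progenitors, read 3641.5 and 2925.8 on the positive and 2618.3 and 2123.0 on the negative arrays. The fractions did not overlap, and replicate 2 was the lower array in each. The log2 difference was 0.47 ± 0.17 (limma adjusted p = 0.219), with a 95% interval from 0.05 to 0.89, and it was 0.31 without positive replicate 1. Msi2 read 2803.3 and 2882.3 on the positive and 2337.3 and 2569.0 on the negative arrays. Its groups did not overlap either, but the difference of 0.21 ± 0.11 did not pass (adjusted p = 0.366) and its interval ran from -0.05 to 0.48. Their features stood at percentiles 98.1 (Msi1) and 97.9 (Msi2) of mean intensity over all features.

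The PTB genes had differences of opposite sign. Ptbp1, the form of progenitors and non-neuronal cells, read 2336.1 and 1735.0 on the positive and 2474.2 and 2596.1 on the negative arrays. Positive replicate 2 was the low array, and positive replicate 1 was only 0.08 log2 units below the lower negative array. The log2 difference was -0.33 ± 0.16 (limma adjusted p = 0.369). With only replicate 1 of the positive fraction it was -0.12, and with only replicate 2 it was -0.55. A second, dimmer Ptbp1 feature read 831.4 and 645.4 against 964.4 and 1083.0 and differed by -0.48 ± 0.16 (adjusted p = 0.194). Ptbp2, the form that follows Ptbp1 when neurons differentiate, read 4408.9 and 5320.5 on the positive and 3379.1 and 3822.4 on the negative arrays, with no overlap. Its log2 difference was 0.43 ± 0.14 (adjusted p = 0.190), with an interval from 0.08 to 0.78.

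The ratio of Ptbp2 to Ptbp1 within an array was higher on both positive arrays, by 0.76 log2 units on average. Over the 4 pairs of a positive with a negative array the difference ran from 0.36 to 1.17. The exact two-sided permutation p was 0.333, the smallest that 2 against 2 arrays allow, and 0.667 after adjustment over the 3 ratios compared. The ratio of Msi1 to Msi2 differed by 0.26 and that of Elavl3 to Elavl4 by 0.55, and both overlapped between the fractions (exact permutation p = 0.667 each, adjusted 0.667). Progenitor and cell cycle markers had a median log2 difference of -1.01. In positive replicate 2, the array lowest for Ptbp1, their median difference from positive replicate 1 was -0.71. Between the negative replicates they differed by a median of -0.15 (replicate 2 minus replicate 1), and Ptbp1 by 0.07. Their part in the Ptbp1 values was not tested.

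Nova1 encodes a neuronal regulator that binds clustered YCAY motifs. It read 664.8 and 873.6 on the positive and 783.4 and 950.6 on the negative arrays. The groups overlapped, with the lowest value on positive replicate 1 and the highest on negative replicate 2. The log2 difference was -0.18 ± 0.18 (limma adjusted p = 0.694), with a 95% interval from -0.63 to 0.27. The other Nova1 feature differed by 0.02 ± 0.12 (adjusted p = 0.964), so the sign depended on the feature.

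The Elavl genes encode the neuronal Hu proteins. Each of those among the members had a positive difference and was higher in replicate 2 of both fractions. Only Elavl3 did not overlap between the fractions. Elavl3, or HuC, read 1576.8 and 1993.6 on the positive and 928.3 and 1217.5 on the negative arrays. Replicate 2 was 1.26-fold higher among the positive and 1.31-fold higher among the negative arrays. The groups did not overlap, with a gap of 0.37 log2 units. Its log2 difference of 0.74 ± 0.19 was the second largest among the members (limma adjusted p = 0.130), with a 95% interval from 0.27 to 1.21. Elavl2, or HuB, read 281.5 and 547.6 on the positive and 284.4 and 422.1 on the negative arrays. Here both replicate 1 arrays were low and both replicate 2 arrays high, and the log2 difference between fractions was 0.18 ± 0.36 (adjusted p = 0.874). Elavl4, or HuD, read 184.2 and 428.4 on the positive and 149.5 and 407.7 on the negative arrays. It too was high on both replicate 2 arrays, with a log2 difference between fractions of 0.19 ± 0.59 (adjusted p = 0.932). The intervals of Elavl2 (-0.72 to 1.08) and Elavl4 (-1.31 to 1.68) were the widest of the 10, and both reach past a 2-fold increase. The sign of both turned without positive replicate 2, to -0.30 for Elavl2 and -0.42 for Elavl4, and without negative replicate 1, to -0.10 and -0.54.

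Celf4 encodes a CELF protein of neurons that binds many synaptic messenger RNAs. It read 660.7 and 795.9 on the positive and 437.5 and 447.2 on the negative arrays. The gap between the groups was 0.56 log2 units, and the negative arrays were nearly equal. The log2 difference was 0.71 ± 0.13 (limma adjusted p = 0.0814), with a 95% interval from 0.39 to 1.04. It passed without positive replicate 1 (log2 difference 0.85, adjusted p = 0.0300). Among markers of other neurons, all 9 amacrine and 6 of 7 horizontal cell markers had differences above 0, against 47.8% of all features. Their medians were 0.43 and 0.41. As higher, 2 and 0 of them passed limma's test, against 0.820% of all features. At an unadjusted p under 0.05 there were 7 and 3 higher, against 9.34% of all features. Of 6 bipolar cell markers 2 were above 0, with a median of -0.01, and the ganglion cell markers had a median of 0.18. The horizontal cell markers summed to 2466.8 and 4343.8 on the positive and 2046.9 to 2074.7 on the negative arrays, the lowest value of any of them being 55.6, for Calb1. Their part in the Elavl3 and Celf4 values was not tested.

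**Figure D2:**
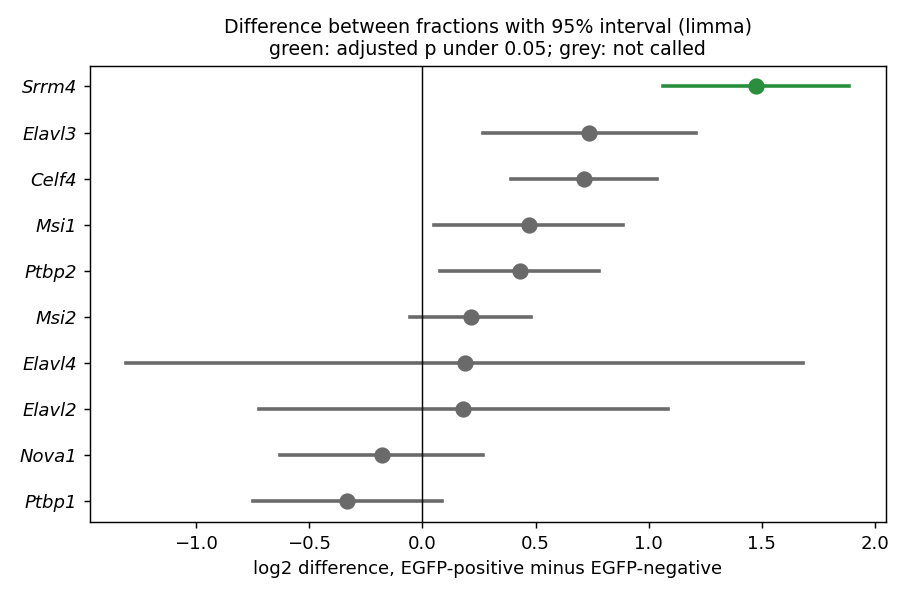
Log2 difference between the EGFP-positive and EGFP-negative fraction (horizontal axis) for each regulator, as a point with limma's 95% interval. Srrm4 (green) passed the adjusted threshold with an interval from 1.06 to 1.89, and the other regulators (grey) did not.

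Counted over the members, 8 of 10 differences were above 0, against 47.8% of all features, and the median was 0.32 against -0.01. The positive arrays lay above the negative arrays without overlap in 6 members, against 22.3% of all features, and below in 1, against 25.3%. An unadjusted p under 0.05 was reached by 5 members, all with a positive difference, against 9.34% of all features in that direction and 9.83% in the other. These counts describe members named with results of these arrays in view and carry no test of their own.

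The replicates differed for several members in the same direction in both fractions. Replicate 2 was higher than replicate 1 in both fractions for 8 of 10 members, against 29.0% of all features. For Elavl4 it was 2.33-fold higher among the positive and 2.73-fold among the negative arrays. For Elavl2 it was 1.95- and 1.48-fold higher. Msi1 was the member that was lower in replicate 2 of both fractions, by 1.24- and 1.23-fold. Ptbp1 was lower by 1.35-fold in the positive replicate 2 and higher by 1.05-fold in the negative one.

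Markers of ganglion cells, which express Elavl genes, moved with these values. Of 13 measured ganglion cell markers 10 were higher in replicate 2 of both fractions. Over all 13 the median of replicate 2 minus replicate 1 was 0.74 log2 units among the positive arrays and 1.14 among the negative arrays. Their summed intensity was 8116.4 and 12134.6 on the positive and 5326.8 and 10910.9 on the negative arrays, and the lowest value of any of them was 117.5, for Slc17a6. Horizontal cell markers had medians of replicate 2 minus replicate 1 of 0.35 (positive arrays) and 0.16 (negative arrays), and 5 of 7 were higher in both fractions. For amacrine markers the medians were -0.11 and -0.08, with 3 of 9 higher and 5 lower in both. The part of these cell types in the Elavl2 and Elavl4 values was not tested. For Srrm4 the replicates differed by 0.23 log2 units (positive arrays) and 0.36 (negative arrays), less than the gap of 1.18 between the fractions.

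**Figure D3:**
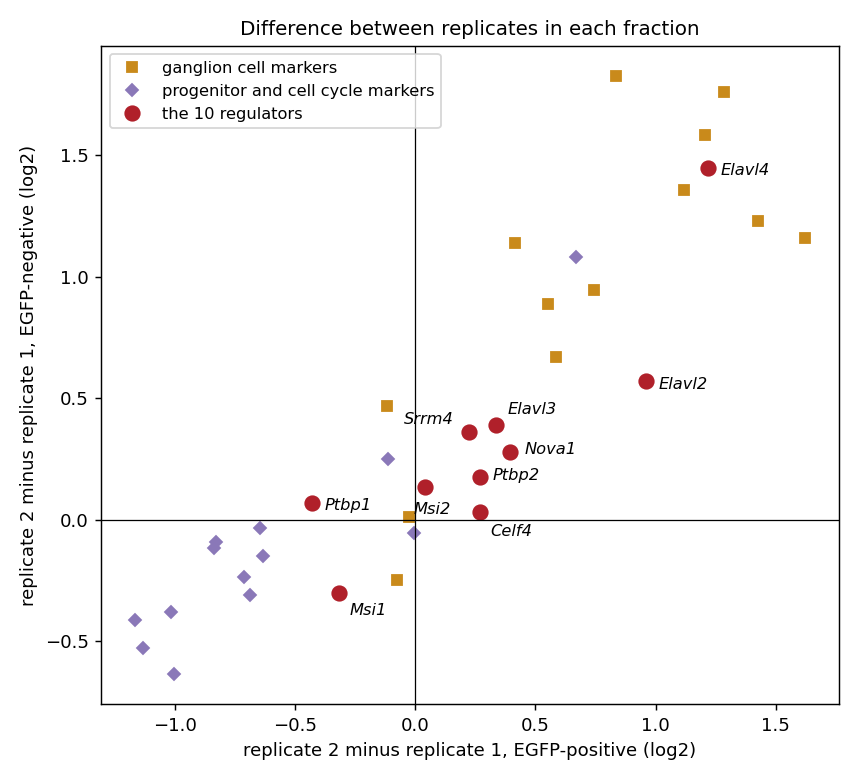
Log2 intensity of replicate 2 minus replicate 1 in the EGFP-positive (horizontal axis) and EGFP-negative fraction (vertical axis) for the 10 regulators (red circles, labelled), ganglion cell markers (orange squares) and progenitor and cell cycle markers (violet diamonds). Elavl4 and Elavl2 lie at the upper right, Elavl4 among the ganglion cell markers, and Msi1 lies at the lower left, where most of the progenitor and cell cycle markers are.

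The genes closest to a member over the 4 arrays were taken by Euclidean distance between log2 values, each gene centred on its own mean. For Elavl4 they were Nefm, a neurofilament gene (distance 0.10 log2 units), and the transcription factor genes Ebf1 (0.12) and Isl1 (0.33), and all 3 belong to the ganglion cell list. For Srrm4 they were Mfap4 (0.17), an extracellular matrix gene, Cpeb4 (0.17), which encodes a regulator of cytoplasmic polyadenylation, and Klhl29 (0.18). Cpeb4 read 1298.6 and 1696.3 on the positive and 508.7 and 576.0 on the negative arrays (log2 difference 1.46, limma adjusted p = 0.0354). Only 91 of the 18919 other genes lay within 0.5 log2 units of Srrm4 and 16 of Elavl4, while 3868 lay that close to Msi1. The nearest to Msi1 were the calcium channel gene Cacna1g (0.05), Lactbl1 (0.07) and Magea6 (0.09). These distances describe 4 arrays and carry no test.

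Other splicing regulators of neurons and particular tissues were measured as a list of 26 genes, 25 of them with a feature. None passed limma's test over all features. At an unadjusted p under 0.05 there were 8 higher and 2 lower, against 9.34% and 9.83% of all features. The median log2 difference was 0.19, and 18 of 25 were above 0, against 47.8% of all features. Rbm24, a splicing factor best known from muscle, read 508.4 and 1027.9 on the positive and 202.8 and 282.1 on the negative arrays (1.60 ± 0.36, adjusted p = 0.108). Celf3, a neuronal relative of Celf4, read 2276.4 and 3220.5 against 905.0 and 1072.4 (1.46 ± 0.20, adjusted p = 0.0521). Mbnl3, a muscleblind gene, had the largest negative difference, with 150.5 and 157.1 against 249.0 and 300.3 (-0.83 ± 0.13, adjusted p = 0.0673). When positive replicate 1 was left out, Rbm24 and Celf3 passed (adjusted p = 0.0101 and 0.00847). Celf3 also passed with each array centred on its median (adjusted p = 0.0471) and with a robust variance trend (0.0458).

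General splicing factors, which act on most introns, differed less. Of 26 listed genes 22 were measured, and none passed limma's test. At an unadjusted p under 0.05 there were 0 higher and 3 lower, against 9.34% and 9.83% of all features. Their median log2 difference was -0.10. Of the 22 differences 16 were below 0 and 6 above, against 47.8% of all features above 0. The largest were those of the SR-like factor gene Tra2a (-0.49 ± 0.14, adjusted p = 0.156), of U2af1, which recognises the end of the intron (-0.40 ± 0.10, adjusted p = 0.135), and of Hnrnpf (-0.37 ± 0.21, adjusted p = 0.432). Hnrnpf differed by -0.07 without positive replicate 2 and by -0.66 without positive replicate 1. The difference between these lists was not tested.

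Genes known for exons used in photoreceptors had higher values in the positive fraction. Of 10, limma called 2 higher and none lower, against 0.820% and 0.143% of all features. All 10 had a mean above that of the negative fraction, against 47.8% of all features. The median log2 difference was 0.60, against -0.01 over all features. Impdh1, an enzyme of guanine nucleotide synthesis, read 635.0 and 563.1 on the positive and 314.4 and 312.4 on the negative arrays (0.93 ± 0.11, adjusted p = 0.0410). The other called gene was the calcium channel subunit gene Cacna2d4 (1.79 ± 0.10, adjusted p = 0.00690). Prom1, which shapes outer segment discs, read 588.6 and 828.9 against 294.1 and 313.8 (1.20 ± 0.18, adjusted p = 0.0662) and passed without positive replicate 1 (adjusted p = 0.00903). The count of called genes was 0 when either negative array was left out and 5 without positive replicate 1. With positive replicate 2 left out it was 1, Cacna2d4, and Impdh1 had an adjusted p of 0.0538. These are values of whole genes and say nothing of the exons.

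Of 11 genes listed as RNA targets of the regulators 7 were measured, and none passed limma's test over all features. At an unadjusted p under 0.05 there was 1 higher and 1 lower, against 9.34% and 9.83% of all features. Rest, whose messenger RNA is spliced under Srrm4 and whose product represses neuronal genes including Srrm4, read 585.6 and 380.8 on the positive and 1085.4 and 952.8 on the negative arrays. The groups did not overlap, and the log2 difference was -1.11 ± 0.22 (adjusted p = 0.0904). It passed without positive replicate 1 (-1.42, adjusted p = 0.0112). Dlg4, a postsynaptic scaffold gene with an exon held out by PTB proteins, read 933.0 and 829.9 against 565.1 and 595.7 (0.60 ± 0.11, adjusted p = 0.0850). Glra2, a glycine receptor gene with exons regulated by Nova proteins, was dim, at 67.7 to 143.5 over the 4 arrays, and overlapped between the fractions (0.53 ± 0.26, adjusted p = 0.364). Leaving out positive replicate 1 gave a difference of 0.24, leaving out positive replicate 2 gave 0.82, and leaving out negative replicate 2 gave 0.27.

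**Figure D4:**
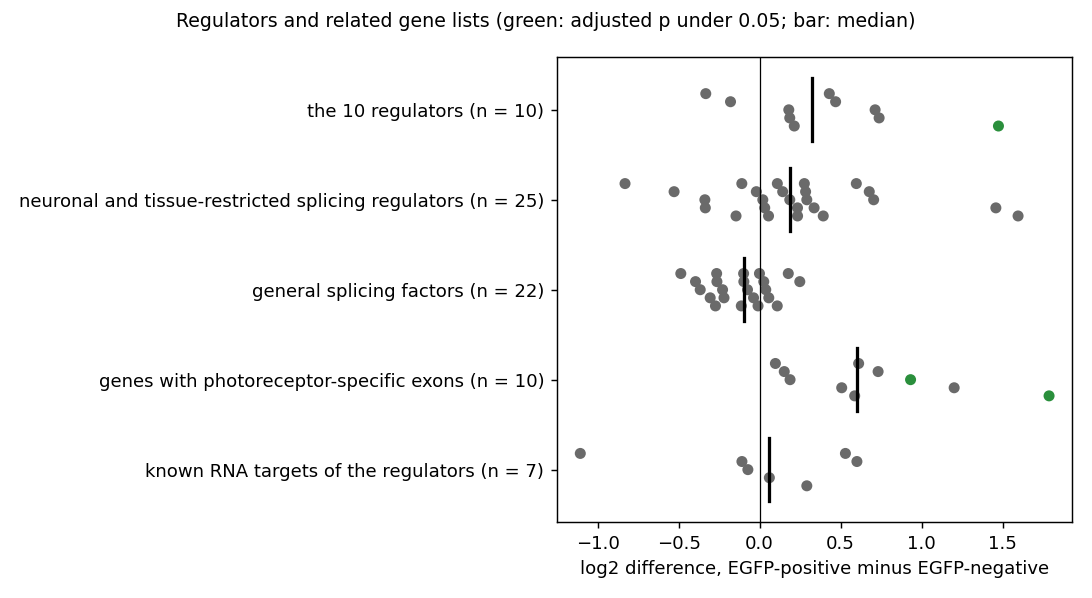
Log2 difference between the EGFP-positive and EGFP-negative fraction (horizontal axis) for the 10 regulators and 4 related gene lists, 1 point per gene, with a bar at the median of each list. Green points passed the adjusted threshold: Srrm4 among the regulators, and Impdh1 and Cacna2d4 among genes with photoreceptor-specific exons.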

How the data were processed

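Total RNA (100 ng per sample) from sorted retinal cells was amplified, labelled with biotin and measured on 4 Affymetrix arrays. The authors deposited normalised intensity values. RMA and the build mm8 are named in the submitters' processing notes, and the RMA version is not given in the sources used here. The scale was taken as linear from the range of 18.9 to 36625.2, and log2 was computed without a pseudocount. Array medians were 218.4 to 222.9. The number of arrays limits the precision, with a median SE of 0.12 log2 units.

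Of 22431 features 20176 had 1 symbol, 412 several and 1843 none in the platform annotation, and no symbol needed updating against RefSeq (GRCm38.p6). Limma 3.58.1 in R 4.3.3 (lmFit, eBayes, 5.26 degrees of freedom) was fitted to all features and arrays, two-sided, with Benjamini-Hochberg adjustment over all features. The fit was first run on simulated arrays with known changes and independent noise, which does not show how it behaves on these arrays. No replicate block was fitted in the main model. The members and gene lists were chosen with earlier results of these data known. All members are named, and of each of the 4 related lists up to 6 called genes, or else the largest differences up to 3, and for Msi1, Srrm4 and Elavl4 the 3 genes nearest in pattern. Alternatives were leaving out each array, the replicate block, 2 other scalings, another variance model, a filter on dim features (below the 25th percentile), a pseudocount of 16 and the mean of a gene's features. List genes without a feature of 1 symbol were not analysed here.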

Additional observations from a re-analysis of the deposited data

How the results depend on the processing

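Leaving out 1 array at a time gave log2 differences of 1.29 to 1.66 for Srrm4, -0.30 to 0.66 for Elavl2, -0.54 to 0.91 for Elavl4 and -0.38 to 0.018 for Nova1, whose sign turned without positive replicate 1. It gave 0 to 667 features called higher and 0 to 762 called lower, against 184 and 32 with all arrays. Without positive replicate 1 limma called Srrm4 and Celf4, and without any other single array it called none of the members. With 3 arrays the lone sample of a fraction is assumed to vary like the pair.

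With the replicate number as a replicate block, limma called 1377 of all 22431 features higher and 1500 lower. Of the 10 members it called 5, all higher: Srrm4, Celf4, Elavl3, Msi1 and Ptbp2. Of 25 other neuronal and tissue-restricted regulators 5 were called higher and 1 lower, among them Rbm24, Celf3 and Mbnl3 (limma adjusted p = 0.00576, 0.00353 and 0.0110). Of 10 genes with photoreceptor-specific exons 6 were called higher, Prom1 among them (0.00770). Of 7 RNA targets 2 were called higher, Dlg4 (0.0230) and Glra2 (0.0237), and 1 lower, Rest (0.00990). Of 22 general splicing factors 0 were called in either direction. The labels do not say that a shared number marks a shared animal or sort, and with 2 pairs the data cannot settle it. Deviations of same-numbered arrays correlated at 0.48 across features. Under the other scalings, variance model, filter, pseudocount and mean of features, all 10 members kept their sign and Srrm4 alone passed, with an adjusted p of 0.0299 to 0.0429. Centring moved the median difference of all features from -0.0092 to 0.015.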
